A study of Mus musculus with 72 samples.

Results

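The genes described here are 10 genes of the circadian clock and its direct output, Arntl, Npas2, Cry1, Per1, Per2, Per3, Nr1d1, Dbp, Tef and Ciart, in the livers of male mice kept on a high-fat diet (HFD) or a low-fat control diet. They were taken by name, and each was read from the array probe set that the platform annotation gives to that gene alone, the one with the highest mean over all arrays where there were several. This gave values for 9 of the 10 genes, among 19938 genes tested. Npas2 had no such probe set in the annotation and was not analysed here. The data were 72 Affymetrix mouse gene arrays of liver RNA, 1 array per mouse, from single-housed wild-type males sampled while feeding freely.

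The strains were 129P2/OlaHsd (129), C57BL/6J (B6J), C57BL/6NTac (B6N) and C3HeB/FeJ (C3H). Mice of the HFD groups had been fed the diet for 21 days, and control mice, whose treatment label is none, had low-fat diet for at most that time. There were 7 HFD and 8 control arrays of 129, 7 HFD and 8 control arrays of B6J, 8 HFD and 8 control arrays of B6N, and 8 HFD and 18 control arrays of C3H. HFD mice were 17 weeks old, as were the 129 controls, while the controls of the other strains are given as 15 to 17 weeks. The labels give no hour at which livers were taken, and they do not say which mice were sampled together. Whether sampling hours differed between the diet groups was not tested.

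The clock is a feedback loop of transcription. The proteins of Arntl (also called Bmal1) and of Clock or its relative Npas2 bind as pairs to E-box sequences and switch on the Per and Cry genes, whose proteins return to block that pair, and also Nr1d1 (REV-ERB alpha), which represses Arntl. Dbp and Tef encode bZIP transcription factors that carry the rhythm to other genes through D-box sequences, and Ciart (Chrono) encodes another repressor of the Arntl pair. In mouse liver the RNAs of Arntl, Npas2 and Cry1 are at their highest when those of Dbp, Tef, Per3, Nr1d1 and Ciart are low, and the hours of feeding set the phase of the liver clock. A single liver therefore gives 1 point of a daily cycle for every gene at once.

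Short elements through which the loop is known to act were looked for around the starts of these genes. RefSeq start windows (assembly GRCm38.p6, 250 bases before to 50 after an annotated start) were at hand for 9 of the 10 genes, with none for Per2. They were searched on both strands for the E-box CACGTG, the D-box TTANGTAA and the core of the ROR element TAGGTCA, which do not overlap one another in the windows printed. An E-box was present for 4 of the 9 genes (Cry1, Per1, Tef and Ciart), a D-box for 1 (Per3) and the ROR core for 1 (Arntl). Of all 27025 genes with such windows, 8.09% held the E-box, 2.72% the D-box and 2.97% the ROR core, and of the 32851 windows themselves 7.15%, 2.32% and 2.61% did. The windows below, 1 per gene, are of genes on which the diet results turn and that held a match, with each match in capitals. The match in Arntl lies 30 bases after the second of its 2 annotated starts, at chr7:113207261-113207560 on the plus strand. Per3, at chr4:151044616-151044915 on the minus strand, has D-boxes that begin 205 and 158 bases before its start. Tef, at chr15:81802423-81802722 on the plus strand (the first of 2 starts), has an E-box 127 bases before it, and the window of its second start, not printed, has one 138 bases before that start. Ciart, at chr3:95882179-95882478 on the minus strand, has E-boxes 116, 58 and 44 bases before its start.
Arntl: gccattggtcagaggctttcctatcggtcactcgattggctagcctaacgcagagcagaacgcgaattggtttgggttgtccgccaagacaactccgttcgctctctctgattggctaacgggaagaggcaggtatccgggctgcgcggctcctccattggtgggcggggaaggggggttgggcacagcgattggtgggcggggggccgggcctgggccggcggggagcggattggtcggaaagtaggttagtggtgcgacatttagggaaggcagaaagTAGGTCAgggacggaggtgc
Per3: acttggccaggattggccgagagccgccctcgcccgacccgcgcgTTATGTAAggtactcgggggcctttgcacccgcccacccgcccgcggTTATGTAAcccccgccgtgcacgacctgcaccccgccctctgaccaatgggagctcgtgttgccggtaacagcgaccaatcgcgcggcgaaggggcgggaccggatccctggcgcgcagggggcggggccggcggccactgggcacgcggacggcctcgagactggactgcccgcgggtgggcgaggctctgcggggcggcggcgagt
Tef: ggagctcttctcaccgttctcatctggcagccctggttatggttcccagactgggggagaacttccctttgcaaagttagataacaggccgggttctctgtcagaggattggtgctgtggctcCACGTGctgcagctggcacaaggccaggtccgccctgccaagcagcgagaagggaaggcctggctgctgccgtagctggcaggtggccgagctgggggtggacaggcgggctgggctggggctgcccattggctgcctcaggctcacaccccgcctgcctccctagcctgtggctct
Ciart: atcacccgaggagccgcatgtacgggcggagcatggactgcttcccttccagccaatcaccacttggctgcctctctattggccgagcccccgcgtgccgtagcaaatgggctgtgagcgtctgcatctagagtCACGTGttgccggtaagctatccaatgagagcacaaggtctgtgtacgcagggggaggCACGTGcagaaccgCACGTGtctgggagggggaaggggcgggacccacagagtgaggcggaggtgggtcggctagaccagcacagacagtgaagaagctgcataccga

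These matches describe the letters in each window and are not shown to be bound sites. Dbp, Nr1d1 and Npas2 had none of the 3 motifs in their windows, which says only that those exact letters are not there.

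Values are log2 intensities as deposited, and their scale fell into 3 sets, with array medians of 6.46 to 6.65 for 129, 4.51 to 4.67 for both B6 strains and 3.10 to 3.28 for C3H. Levels were therefore compared within a set only, and HFD effects (HFD minus control, log2) within each strain. Hepatocyte markers were bright on every array, with a mean of at least 6.54 log2 units above the array median. Pancreatic acinar markers varied widely between arrays, with means of 6.54 to 12.58 on 129 HFD arrays and 6.61 to 11.51 on 129 control arrays. Arrays of the B6 and C3H sets were also divided into parts, called A and B here. The cut was at the sign of the loading on the first principal component of probe sets without a listed gene. Loadings nearest the cut were 0.0676 and -0.0777 in the B6 set. In C3H they were 0.0285 and -0.0081, so the cut fell in no wide gap there. What these parts stand for is not given in the labels. Of the 129 arrays, HFD 1 stood apart on that component (loading -0.85), while control 6 (0.29) lay near HFD 6 (0.26). Control 6 stood apart by its array median of 6.65, the highest of the 129 arrays, and by a weight of 0.24 in the fit with array weights. In RNA of whole liver, fewer cells of a type and less RNA per cell cannot be told apart.

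Several clock genes were among the most variable genes of these livers within a single strain and diet, and others were so in some sets only. After group means were removed, the SD of Dbp was 0.86 in 129, 0.71 in the B6 strains and 0.76 in C3H, and this was greater than the SD of 99.6% to 99.7% of all genes in each set. The median SD of all genes was 0.17, 0.20 and 0.23 in these sets. Ciart lay at the 99.8, 98.2 and 99.4 percentiles, Nr1d1 at 98.4, 99.2 and 99.6, and Arntl at 99.3, 99.6 and 95.6. Per2, Cry1 and Per1 varied less, down to the 65.8, 68.1 and 72.5 percentiles in C3H, where Tef lay at 85.4 and Per3 at 89.0. In the B6 strains Per1 lay at 83.7 and Per2 at 85.7. Among the 18 C3H controls Dbp spanned 5.08 to 8.40, a 9.97-fold range, and among the 8 129 controls it spanned 7.32 to 10.75, a 10.8-fold range.

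The activator Arntl was lower on HFD in the average over the 4 strains. On 129 HFD arrays it had a lowest value of 6.38, a median of 6.71 and a highest of 7.56, against 6.74, 7.66 and 8.85 on 129 control arrays. The 129 HFD mean lay only 0.37 log2 units above the array median, against 1.13 on 129 controls. On B6J HFD arrays these values were 4.93, 5.60 and 6.49, against 6.05, 6.29 and 7.28 on B6J controls. The groups overlapped in both strains, although 4 of 7 129 HFD arrays and 6 of 7 B6J HFD arrays were below all of their controls. B6N HFD arrays had a lowest value of 4.70, a median of 6.15 and a highest of 6.63, against 5.34, 5.83 and 6.84 on B6N controls. The B6N HFD arrays were split, with replicates 1, 4 and 8 between 4.70 and 4.84 and the other 5 between 6.09 and 6.63, and the group mean of 5.80 lay in the gap. C3H HFD arrays had a lowest value of 3.97, a median of 4.27 and a highest of 4.83, within the range of C3H controls (3.85, 4.51 and 5.59). The Arntl effects were -0.77 ± 0.28 for 129, -0.81 ± 0.28 for B6J, -0.18 ± 0.27 for B6N and -0.23 ± 0.23 for C3H (log2 ± SE), none called within a strain. Their mean of -0.50 ± 0.13 passed the test (adjusted p = 0.017), a 0.71-fold level on HFD (95% interval 0.59 to 0.85).

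Cry1, a repressor whose RNA peaks on the same side of the day as that of Arntl, did not pass the test in any strain or in the mean (-0.06 ± 0.07, adjusted p = 0.87). Its values lay between 6.64 and 7.08 on 129 HFD arrays, against 6.46 and 7.56 on 129 controls, and the HFD range lay within the control range. In 129 the Cry1 probe set was dim, with group means 0.31 (HFD) and 0.35 (control) log2 units above the array median. Npas2, the other late gene named above, has no value here.

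The output gene Dbp was higher on HFD in the same average. On 129 HFD arrays it had a lowest value of 9.99, a median of 10.50 and a highest of 10.78, against 7.32, 9.33 and 10.75 on 129 controls. The 129 HFD arrays thus lay together at the upper end of a wide control range, with an SD of 0.26 against 1.15. On B6J HFD arrays Dbp was 7.50 at the lowest, 8.28 at the median and 8.76 at the highest, against 6.21, 7.23 and 8.002 on B6J controls, and 4 of 7 exceeded every control. On B6N HFD arrays it was 6.56, 7.72 and 9.25, against 6.11, 7.86 and 8.08 on B6N controls. On C3H HFD arrays it was 6.60, 7.29 and 8.11, within the C3H control range of 5.08, 6.96 and 8.40. The effects were 1.04 ± 0.38 for 129, 0.99 ± 0.38 for B6J, 0.27 ± 0.36 for B6N and 0.39 ± 0.31 for C3H, none called, with a called mean of 0.67 ± 0.18 (adjusted p = 0.016).

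Tef, a factor of the same family as Dbp, was also higher on HFD in the mean over strains, by less. On 129 HFD arrays it was 8.99, 9.37 and 9.77 at the lowest, median and highest, against 8.09, 8.61 and 9.53 on 129 controls. On B6J HFD arrays it was 7.10, 7.45 and 7.75, against 6.74, 6.99 and 7.13 on B6J controls, so that 6 of 7 B6J HFD arrays were above all 8 controls. On B6N HFD arrays it was 6.47, 7.19 and 8.11, against 6.58, 7.13 and 7.60 on B6N controls, and on C3H HFD arrays 5.69, 6.37 and 6.88, against 5.72, 6.09 and 6.75 on C3H controls. Groups overlapped in every strain. The mean effect of 0.36 ± 0.09 was called (adjusted p = 0.0064), and the effects within 129 (0.65 ± 0.18, adjusted p = 0.083) and B6J (0.47 ± 0.18, adjusted p = 0.62) were not.

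**Figure D1:**
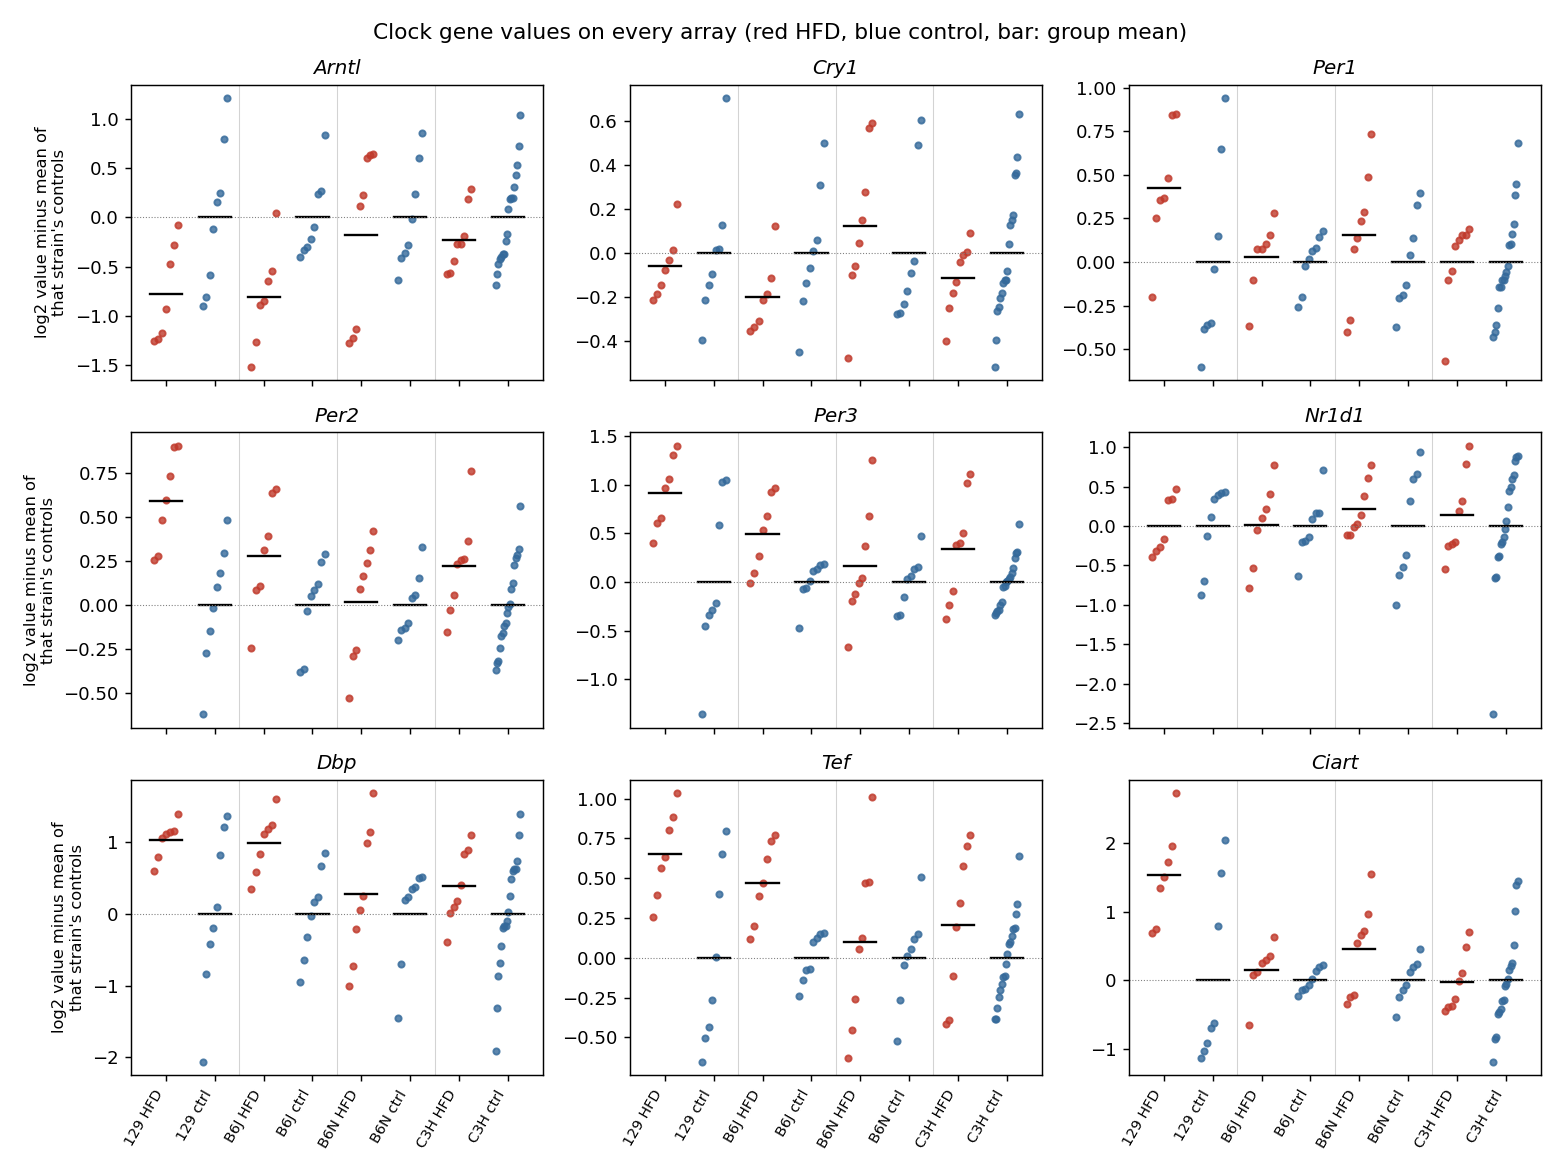
Each point is 1 array, for 9 clock genes; the vertical axis is the log2 value minus the mean of the controls of the same strain, with HFD arrays in red left of control arrays (ctrl) in blue and a bar at each group mean. Points within a group are placed in order of value. Of the genes shown, Dbp and Ciart spread widely among 129 controls, and B6N HFD arrays split into 3 low and 5 high arrays for Arntl.

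The period genes encode the PER proteins, which form the repressive complex with CRY proteins. Per3 was 8.17 at the lowest, 8.74 at the median and 9.17 at the highest on 129 HFD arrays, against 6.41, 7.51 and 8.81 on 129 controls. On B6J HFD arrays it was 4.73, 5.27 and 5.70, against 4.26, 4.80 and 4.92 on B6J controls. In 129, 3 of 7 HFD arrays, and in B6J 5 of 7, were above all of their controls, and the rest overlapped. On B6N HFD arrays Per3 was 4.200, 4.88 and 6.11, against 4.52, 4.91 and 5.33 on B6N controls. On C3H HFD arrays it was 3.29, 4.06 and 4.78, against 3.34, 3.67 and 4.26 on C3H controls. The HFD arrays of these last strains spread on both sides of their controls. The mean effect was 0.48 ± 0.11 (adjusted p = 0.0021), a 1.39-fold level (95% interval 1.20 to 1.61). Per3 was dim on B6 control arrays, with group means 0.18 (B6J) and 0.28 (B6N) log2 units above the array median. On HFD they lay 0.66 and 0.45 above it.

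Per2 was 8.22, 8.57 and 8.88 at the lowest, median and highest on 129 HFD arrays, against 7.35, 8.01 and 8.45 on 129 controls, and 5 of 7 HFD arrays were above every control. On B6J HFD arrays it was 4.97, 5.52 and 5.87, against 4.82, 5.28 and 5.500 on B6J controls. The B6N HFD values were 4.78, 5.44 and 5.73, against 5.11, 5.28 and 5.64 in B6N controls, and the C3H HFD values 3.82, 4.22 and 4.74, against 3.61, 3.95 and 4.54 in C3H controls. The effects were 0.59 ± 0.14 for 129, 0.28 ± 0.14 for B6J, 0.02 ± 0.14 for B6N and 0.22 ± 0.12 for C3H. Their mean of 0.28 ± 0.07 was called (adjusted p = 0.0062). Per1 had a mean effect of 0.15 ± 0.08 that did not pass (adjusted p = 0.47). On B6 and C3H arrays its group means were at most 0.17 log2 units above the array median, so its values there are those of a dim probe set. On 129 arrays they lay 1.45 above it on HFD and 1.02 above it on control diet. The Per1 effect in 129 was 0.42 ± 0.16 and was not called (adjusted p = 0.49).

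Nr1d1 and Ciart encode repressors outside the period family. Nr1d1, which is known to repress Arntl, had effects of 0.00 ± 0.29 for 129, 0.02 ± 0.29 for B6J, 0.21 ± 0.28 for B6N and 0.14 ± 0.24 for C3H, with a mean of 0.09 ± 0.14 (adjusted p = 0.92; 95% interval 0.88- to 1.29-fold). Its values ran between 10.78 and 11.64 on 129 HFD arrays, against 10.29 and 11.60 on 129 controls. The lowest Nr1d1 value of C3H was 5.32, on control 17, where the next lowest control had 7.05. The same array had the lowest Dbp value of its group (5.08) and the second highest Arntl value (5.27).

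The largest called effect of any clock gene within a strain was that of Ciart in 129. The 7 129 HFD arrays had a lowest value of 8.09, a median of 8.90 and a highest of 10.13, against 6.26, 6.73 and 9.45 on the 8 129 controls. The control arrays were not of a kind: replicates 1, 2 and 5 had 8.19, 8.97 and 9.45, in the range of the HFD arrays, while the other 5 lay between 6.26 and 6.76. Controls 1, 2 and 5 also had the highest 3 Dbp values of their group (10.21, 10.60 and 10.75) and its lowest 3 Arntl values (7.05, 6.74 and 6.84). In the other strains the Ciart effect was 0.16 ± 0.34 in B6J, 0.45 ± 0.33 in B6N and -0.03 ± 0.28 in C3H. Its group means there lay between -0.31 and 0.34 log2 units from the array median, so these are values of a dim probe set, whereas in 129 they lay 2.44 above it on HFD and 0.89 above it on control diet. A second probe set of Ciart gave 1.03 ± 0.30 in 129, against 1.53 ± 0.34 from the brighter one, and was not called (adjusted p = 0.10 with every probe set tested). In the mean over strains the second gave 0.38 ± 0.14 (adjusted p = 0.19) and the brighter one 0.53 ± 0.16 (adjusted p = 0.051). Neither mean was called in that fit. The counts of called clock genes below use the brighter probe set only.

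Counted over the 9 genes, 3 were called in 129, all higher on HFD: Ciart (adjusted p = 0.0081), Per2 (0.021) and Per3 (0.025). Of all genes tested, 0.577% were called in 129, and 0.441% were called higher. At an unadjusted p under 0.05 there were 7 of the 9 in 129, against 5.48% of all genes. In B6J 0 of 9 were called, against 0.296% of all genes, with 4 at an unadjusted p under 0.05 (Arntl, Per3, Dbp and Tef; 5.78% of all genes) and 1, Tef, called when the B6J arrays were fitted alone. In B6N 0 of 9 were called, against 0.918% of all genes, with 0 at an unadjusted p under 0.05 (5.68% of all genes). In C3H 0 of 9 were called, against 0.853%, again with 0 at an unadjusted p under 0.05 (8.24% of all genes). In the mean over strains 6 of 9 were called, against 3.16% of all genes. Of these Per3, Per2, Tef, Dbp and Ciart were higher (2.02% of all genes were) and Arntl lower (1.14%). The median effect over the 9 genes was 0.59 for 129, 0.16 for B6J, 0.15 for B6N, 0.14 for C3H and 0.28 in the mean, where the median of all genes was 0.00, 0.00, 0.00, 0.01 and 0.00. In no strain did the HFD and control arrays of any of the 9 genes separate fully.

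Whether the diet effect differed between strains was asked with an F test over the 4 effects. It called 0 of 9 clock genes, against 0.125% of all genes, with 2 at an unadjusted p under 0.05 (Ciart, adjusted p = 0.69, and Per2, adjusted p = 1.0). The effect of HFD is therefore not shown to differ between the strains, for Ciart included. Between the 2 B6 substrains on control diet, 0 of 9 genes were called in B6N against B6J (0.0351% of all genes), and 1, Cry1 (-0.29 ± 0.14), had an unadjusted p under 0.05.

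**Figure D2:**
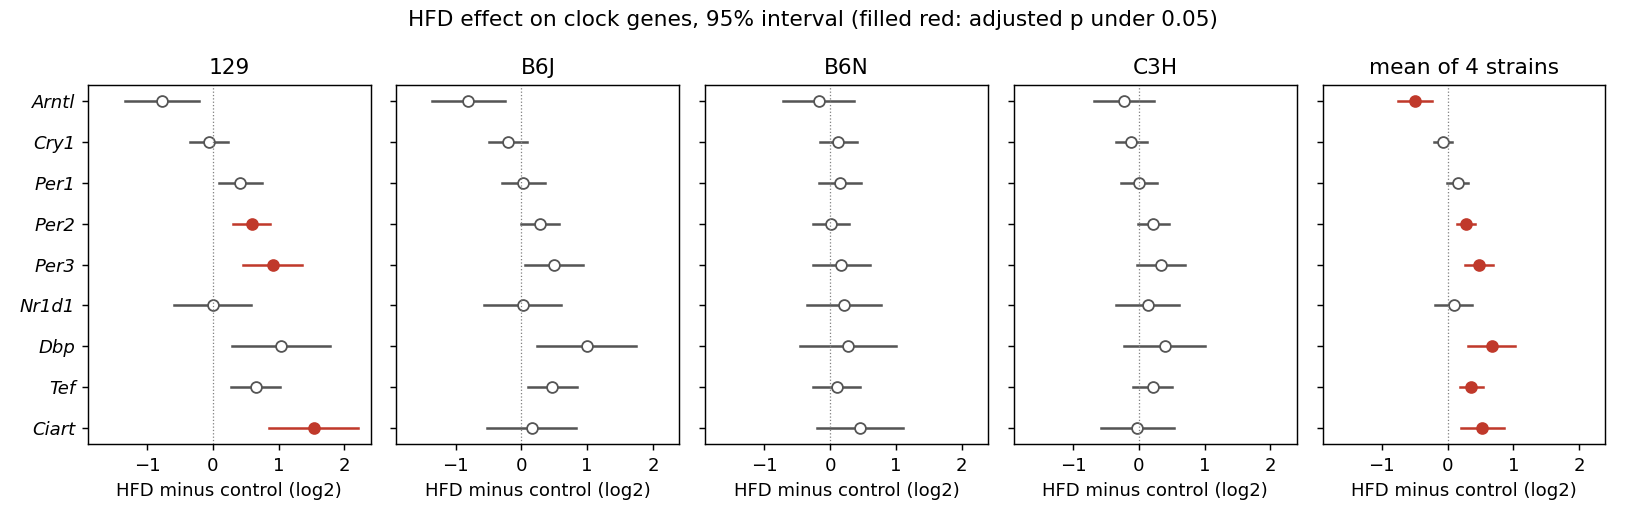
HFD minus control on the log2 scale for 9 clock genes in each strain and in the mean of the 4 strains; lines are 95% intervals, and filled red points passed an adjusted p of 0.05. In 129, Per2, Per3 and Ciart are filled; in the mean, Arntl lies at -0.50 and Per2, Per3, Dbp, Tef and Ciart lie above 0.

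Calls in 129 depended on single arrays. Ciart was called without any 1 array (adjusted p up to 0.037), whereas Per2 lost its call in 5 such fits (without control 6 or 8, or HFD 2, 3 or 5) and Per3 in 7 (without control 4, 6, 7 or 8, or HFD 1, 2 or 3). Without the 2 129 arrays that stood apart, Ciart remained called and Per2 (0.50, adjusted p = 0.15) and Per3 (0.84, adjusted p = 0.13) did not. In a fit of the 129 arrays alone, none of the 3 was called (Ciart adjusted p = 0.26, Per2 0.125, Per3 0.294). The main fit takes 1 spread per gene from all 72 arrays, so its SEs for 129 also draw on the other strains. After group means were removed, the SD of Ciart was 1.05 in 129, 0.43 in the B6 strains and 0.66 in C3H. For Per3 it was 0.66, 0.39 and 0.37, and for Per2 0.31, 0.28 and 0.27. In the mean over strains, Arntl, Per2, Per3, Dbp and Tef passed in every fit without 1 array (adjusted p up to 0.031), and Ciart lost its call in 54 of 72. With array weights, more genes were called in the mean (836 in all, against 630). Arntl (adjusted p = 0.072), Dbp (0.105), Tef (0.069) and Ciart (0.169) nevertheless lost their calls there, which left Per2 and Per3. With the replicate number as a block, Per2 in 129 (adjusted p = 0.052) and Ciart in the mean (adjusted p = 0.11) were not called.

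The diet effect was also taken within the parts of the B6 and C3H arrays. For C3H, part A held 4 HFD and 10 control arrays, and there the effect was 0.98 ± 0.41 for Dbp, 0.76 ± 0.25 for Per3 (adjusted p = 0.083), 0.53 ± 0.21 for Tef and -0.46 ± 0.32 for Arntl. Part B, with 4 HFD and 8 control arrays, gave -0.30 ± 0.43 for Dbp, -0.09 ± 0.26 for Per3, -0.12 ± 0.22 for Tef and 0.04 ± 0.33 for Arntl. All 4 genes thus had the opposite sign in part B. Per2 gave 0.22 ± 0.16 in part A and 0.22 ± 0.17 in part B. For B6N, Dbp gave 0.77 ± 0.57 in part A (3 HFD and 3 control arrays) and -0.02 ± 0.44 in part B (5 and 5). For B6J, Dbp gave 1.23 ± 0.47 in part A (5 and 4) and 0.82 ± 0.60 in part B (2 and 4). No clock gene was called within a part, where 0.0150% to 4.06% of all genes were. The difference between parts was not tested. With the parts as a block, 6 of 9 genes were called in the mean, as without it (769 genes in all, against 630). The 129 arrays were given no parts, so the block could not change their effects. There 3 of 9 were called as before (195 genes in all, against 115), which is no check on parts.

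Genes were also set against each other array by array inside a group, where diet is the same for all. Pearson's r of Arntl and Dbp was negative in 7 of 7 groups that could be tested, between -0.91 and -0.59, and 6 passed after adjustment over the 34 pairs tested. The tests were exact permutation tests for groups under 10 arrays and 100000 resamples for the 18 C3H controls. In those controls r was -0.85 and rho -0.80 (adjusted permutation p = 0.00034, from 1e-05, the smallest that the resamples can give, and 0.0044), and r was -0.77 without the 2 arrays farthest from the median of Arntl (adjusted permutation p = 0.020). Within parts A and B of the C3H controls r was -0.85 over 10 arrays and -0.91 over 8. The other passing groups were 129 control (-0.90), B6J HFD (-0.91), B6J control (-0.89), B6N control (-0.83) and C3H HFD (-0.81), with 129 HFD at -0.59. Without the 2 farthest arrays these smaller groups held only 5 or 6 arrays, and none passed. So few arrays leave a permutation test little room to pass after adjustment, and leaving out the farthest arrays also narrows the range of Arntl. These failures alone therefore do not show that a relation rested on 2 arrays. The sign of r stayed negative in all but the B6N controls (0.25), where the relation rested on those 2 arrays. B6N HFD arrays fell into separate clusters of Arntl and got no r.

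**Figure D3:**
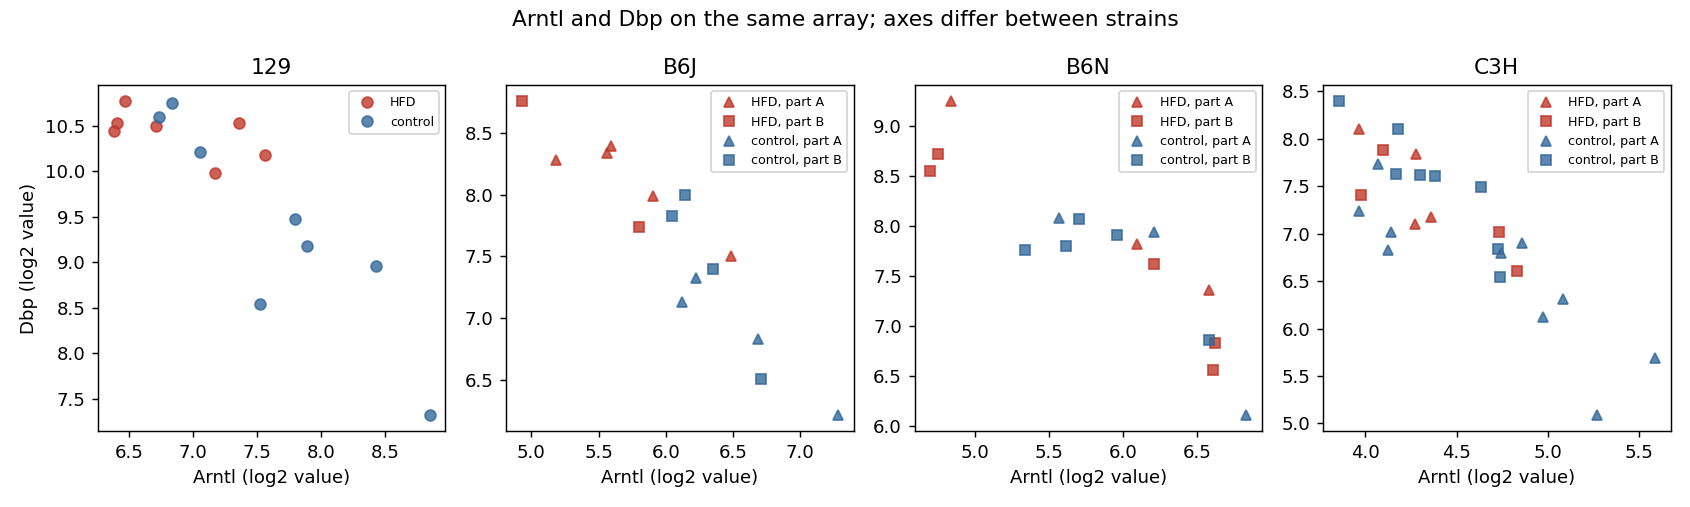
Arntl (horizontal) and Dbp (vertical) as log2 values on the same array, 1 panel per strain with its own axes; HFD is red and control blue, and triangles and squares mark array parts A and B. In 129, B6J and C3H the points run along a falling line, and B6N HFD arrays sit in 2 clusters, 3 at low Arntl and 5 at high Arntl.

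Arntl and Per3 were likewise opposed in 7 of 7 groups, with r between -0.96 and -0.51, and 4 groups passed (129 control, B6J control, B6N control and C3H control). Arntl and Cry1, which peak on the same side of the day, had a positive r in 6 of 6 groups (0.43 to 0.85), and 3 passed. B6N controls, split for Cry1, got no r for this pair. Dbp and Per3 had a positive r in 8 of 8 groups (0.42 to 0.97), and 6 passed. Arntl and Nr1d1 gave negative values in 4 of 6 groups (-0.67 to 0.38), and 0 passed by Pearson's r, while B6J controls passed by rho (-0.95, adjusted exact permutation p = 0.013). The 129 HFD arrays got no r for this pair, since their Nr1d1 values were split (largest gap 0.569 of the range). There HFD 1, 5 and 7, the upper cluster of Nr1d1, had Arntl of 7.36, 6.71 and 7.56. HFD 2, 3, 4 and 6 had 6.47, 6.41, 7.17 and 6.38. Without the 2 arrays farthest from the median of the first gene, r turned for Arntl and Per3 in C3H HFD (0.20), for Dbp and Per3 in B6J HFD (-0.20) and for Arntl and Nr1d1 in B6N controls (0.87), so those values rested on these arrays. Parts of groups other than the C3H controls held fewer than 6 arrays each and got no r. Of the 34 tests 19 passed by Pearson's r, 7 by Spearman's rho and 1 without the 2 farthest arrays. Apart from the C3H controls, with 16 left, the last tests had 5 or 6 arrays each, so that count cannot be set against the 19. The pairs of Arntl with Per3 and Cry1 were added after the data were seen, since Npas2 had no value. All of these genes are read from the same RNA of the same array, so that RNA quality and array effects are shared by both genes of a pair.

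Over all 72 arrays, after the group means were removed and each gene was scaled within its set, Per3 and Tef had r = 0.87, Dbp and Tef 0.82, Arntl and Dbp -0.85 and Arntl and Tef -0.74. Per2 stood apart from this pattern, with r of -0.31 to Arntl and 0.32 to Dbp, and Nr1d1 had -0.27 to Arntl and 0.63 to Dbp. These values are descriptions without a test.

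As one number per array, the mean of Arntl and Cry1 minus the mean of Nr1d1, Dbp, Tef, Per3 and Ciart was taken, each gene centred on its strain's controls. It was -1.25 ± 0.46 on 129 HFD arrays (SD, n = 7), against a spread of -1.58 to 2.09 on the 8 129 controls, which average 0 by construction. All 7 129 HFD arrays were below 0, as were 3 of 8 129 controls. It was -0.93 ± 0.55 on B6J HFD arrays (n = 7), with 6 below 0, against 5 of 8 B6J controls. On B6N HFD arrays it was -0.27 ± 1.15 (n = 8) and ran between -2.06 and 1.098, wider than the B6N controls at -0.67 to 1.42, with 5 of 8 below 0, against 6 of 8 B6N controls. On C3H HFD arrays it was -0.38 ± 0.54 (n = 8), with 6 below 0, against 10 of 18 C3H controls. No 129 HFD array reached the highest 5 of the 129 controls, while the lowest 129 HFD value was -1.79.

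**Figure D4:**
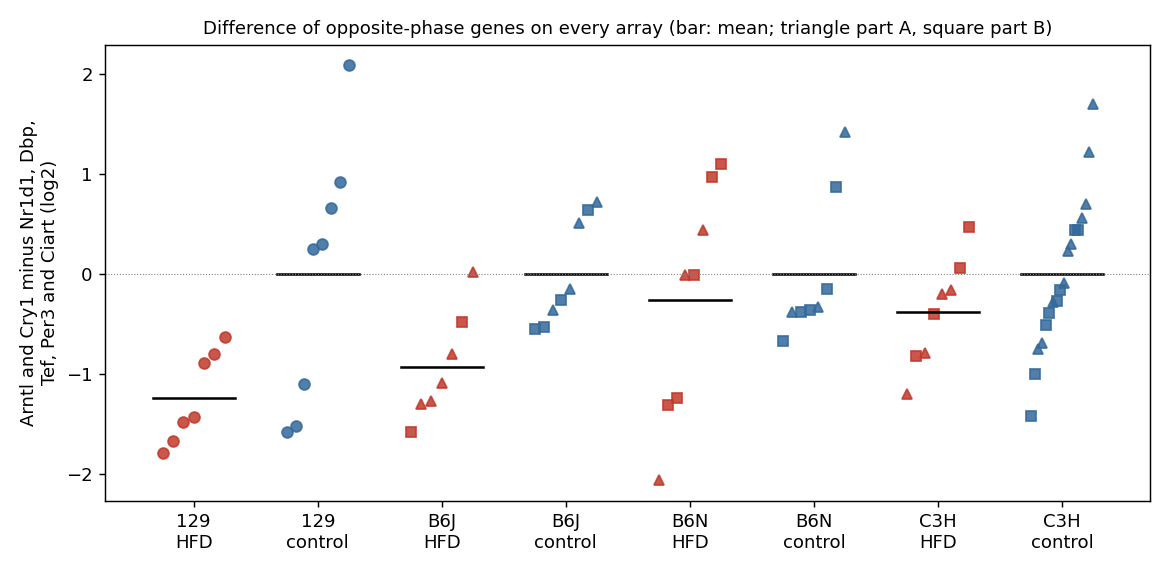
Mean of Arntl and Cry1 minus mean of Nr1d1, Dbp, Tef, Per3 and Ciart on each array (log2, each gene first centred on the controls of its strain); red HFD arrays stand left of the blue control arrays of the strain, bars are group means, and triangles and squares mark array parts A and B. The 129 HFD arrays lie between -1.79 and -0.64, and B6N HFD arrays lie between -2.06 and 1.098.

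The wider clock list had 19 measured genes. In each single strain 0 of 19 were called, with 5, 3, 2 and 2 at an unadjusted p under 0.05 in 129, B6J, B6N and C3H, where 5.48%, 5.78%, 5.68% and 8.24% of all genes were. In the mean 3 were called, against 3.16% of all genes, all higher: Wee1 (0.64 ± 0.15, adjusted p = 0.0026), a cell cycle kinase whose gene is a known clock target, Bhlhe40 (0.48 ± 0.13, adjusted p = 0.015), a repressor that competes at E-boxes, and Hlf (0.19 ± 0.06, adjusted p = 0.040), the third factor of the Dbp family. Clock, the partner of Arntl, gave -0.23 ± 0.09 and did not pass (adjusted p = 0.19). The median of the list was 0.12 in the mean over strains, against 0.00 for all genes.

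The genes whose values followed Dbp most closely over the 72 arrays, outside the 10, were Upp2 (r = 0.76), Bhlhe41 (0.75), Nr1d2 (0.75), Narf (0.68) and Usp2 (0.68), and the most opposed were Elovl3 (-0.80), Chka (-0.79), Lonrf3 (-0.69), Clpx (-0.66) and Insig2 (-0.66). For Arntl the closest were Chka (0.88), Elovl3 (0.82), Clpx (0.76), Slc30a10 (0.73) and Pxmp4 (0.71), and the most opposed Upp2 (-0.74), Usp2 (-0.73), Bhlhe41 (-0.69), Nr1d2 (-0.67) and Wee1 (-0.64). Chka, which encodes choline kinase alpha, was lower on HFD in the mean (-0.47 ± 0.12, adjusted p = 0.011), as Arntl was. Upp2, a uridine phosphorylase, was lower on B6N HFD (-1.07 ± 0.28, adjusted p = 0.034), with a mean of -0.42 ± 0.14 that did not pass (adjusted p = 0.084).

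Feeding genes and other cell types were counted beside these results. Of 14 measured genes of the feeding state, 0 were called in 129 (0.577% of all genes), with 4 at an unadjusted p under 0.05 (5.48% of all genes). In B6J 1 was called (Fgf21), in B6N 4 (Fgf21, Cpt1a, Angptl4 and Igfbp1) and in C3H 2 (Fgf21 and Pnpla3), all higher on HFD. In the mean 4 were higher (Fgf21, Cpt1a, Angptl4 and Pnpla3) and 1, Tat, was lower. Of all genes, 0.296% were called in B6J, 0.918% in B6N, 0.853% in C3H and 3.16% in the mean. Fgf21, a liver hormone of fasting, changed by 1.36 ± 0.17 in B6N and 1.04 ± 0.15 in C3H.

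Of 12 macrophage and Kupffer cell markers 6 were higher on HFD in 129 (Adgre1, C1qb, C1qc, Cd5l, Cd68 and Clec4f), 0 in each other strain and 6 in the mean. Of all genes, 0.441% were called higher in 129 and 2.02% in the mean. The mean level of these markers was between 8.89 and 9.98 on 129 HFD arrays, against 8.55 and 9.03 on 129 controls. The part of these cells in the 129 clock results was not tested. Of 16 acinar markers 0 were called in any strain, where 0.296% to 0.918% of all genes were. In B6N 4 had an unadjusted p under 0.05, against 5.68% of all genes. With the acinar level in the fit, the same 3 genes and Tef (adjusted p = 0.039) were called in 129 and 6 of 9 in the mean. Of 9 hepatocyte markers 1, Cps1, was lower, in C3H and in the mean, and no other was called. Of all genes, 0.853% were called in C3H and 3.16% in the mean. No marker was at 0 on any array.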

How the data were processed

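Liver RNA of 72 mice was measured on Affymetrix mouse gene arrays. Per the submitters' processing notes the authors used RMA in Affymetrix Expression Console 1.1. The deposited log2 values were taken as given, since their array medians form 3 sets, which the sources used here do not explain, and levels were compared only within a set, while HFD effects taken within strains were averaged and compared across sets. Of 35556 probe sets, 21789 had 1 gene symbol in the platform annotation, 1621 had several and 12146 were not listed there. 1 probe set was kept for each of 19938 genes. Chromosome positions and promoter windows are RefSeq's (GRCm38.p6).

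Effects were fitted with limma 3.58.1 in R 4.3.3, with 8 group means over all 72 arrays, empirical Bayes moderation, two-sided tests and Benjamini-Hochberg adjustment over all genes, and called at an adjusted p under 0.05. The fit was tested on simulated data. Correlations within groups of at least 6 arrays used permutation tests run in numpy 2.4.6, with ranks from scipy 1.17.1. They were two-sided and adjusted over 34 pairs of genes and groups. No r was taken where the largest gap between neighbouring arrays, with at least 2 arrays on each side, was over 0.5 of the range of either gene, a rule chosen after seeing the data. The clock genes, the gene lists and the markers were chosen with earlier results of these data known. All 10 clock genes are named by rule, genes of the other lists where called, and the 5 most and 5 least correlated genes of Dbp and Arntl.

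The labels number the mice within each group. Same-numbered HFD and control arrays of B6N deviated together (r of 0.10 to 0.46 over all 8 numbers), those of the other strains did not in every pair. B6N replicates 1 to 3 were part A and 4 to 8 part B on both diets, so same-numbered arrays always shared a part. In B6J only number 5 did not, and its r of -0.29 was the only negative one of that strain. In C3H parts differed at some numbers, with r of either sign. The replicate block thus overlapped with the parts in the B6 strains. Nothing in the labels says how replicates were prepared, and p-values reflect array-to-array spread only. Other normalisations, probe set and gene filters, array weights, covariates, blocks and leaving out each array were tried. The number of arrays limits the precision.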

Additional observations from a re-analysis of the deposited data

Results flagged for a closer look

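Of 63 gene and group combinations of 4 to 10 arrays, 2 had an array far from the others by Dixon's test at the 95% level, and chance flags about 1 in 20. Per1 was 2.573 on C3H HFD replicate 6, where the nearest of the other 7 arrays had 3.034. Per3 was 4.263 on B6J control replicate 3, where the nearest of the other 7 controls had 4.665. That B6J array also had the highest Arntl (7.28) and the lowest Dbp (6.21) of its group.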

How the results depend on the processing

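No called result changed direction under the alternatives run. The 3 clock genes called in 129 became 5 with array weights (Arntl and Tef added; 576 genes in all, against 115), 0 in a fit of the 129 arrays alone (41 genes) and 1 without the 2 arrays that stand apart, and between 1 and 4 without 1 array: 1 without control 6, control 8, HFD 2 or HFD 3, and 4 without control 2 or control 5. In B6J 0 became 1 with that strain alone (95 genes, against 59, and 129 genes with array weights). The 6 called in the mean became 2 with array weights (836 genes in all, against 630) and 5 to 6 without 1 array. With array weights Arntl (adjusted p = 0.072), Dbp (0.105), Tef (0.069) and Ciart (0.17) were lost. Ciart also missed the threshold in the mean with median centring (0.069), the replicate block (0.11), quantile normalisation (0.065), all probe sets tested (0.051) and without the 2 arrays that stand apart (0.054). Of the 34 pairs, 19 passed, and 1 without the 2 farthest arrays, where groups other than the C3H controls had 5 or 6 arrays left and could hardly pass. The cause of these changes was not tested. With the replicate number as a block, 2 of 9 were called in 129 and 5 in the mean, no other clock call changed, and the B6N against B6J contrast could not be estimated. The F test called 25 genes, 6 with the block and 71 with array weights. All-gene counts over 1.5 times apart were also seen in C3H (170, 105 with array weights and 93 with that strain alone), in 129 with the parts as a block (195) and in B6N against B6J (7, and 11 with that block). Without 1 array, 69 to 158 genes were called in 129, 38 to 64 in B6J and 18 to 38 by the F test. Median centring moved C3H calls to 69 higher of 141, against 103 of 170.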
